A study of Mus musculus with 3 samples.

Results

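The 82 genes described here encode the proteins of the cytosolic ribosome, the particle that translates messenger RNA in every cell. They were chosen by name from the 55536 genes of the deposited tables, among genes with at least 1 transcript typed protein-coding. The symbols are Rpl or Rps and a number, ending there or after 1 letter (a, x, y or l), 1 digit or both. Rplp0, Rplp1, Rplp2 and Rpsa were taken in as well, and Rps27a was left out. Of the 82 genes, 51 encode proteins of the large subunit and 31 encode proteins of the small subunit. The naming rule uses no measured value, though the genes were chosen with earlier results of these data known. A subset of 6 genes are paralogs, second copies with a diverged sequence (Rpl3l, Rpl7l1, Rpl10l, Rpl22l1, Rpl39l and Rps27l), and the other 76 are called core genes.

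Total RNA was sequenced from F121-9, an established mouse embryonic stem (ES) cell line from a cross of the Cast and 129 strains, at passage 14. The 3 libraries are labelled biological replicates 1, 2 and 3, carry no treatment or genotype that differs between them, and were each made from 400 ng of RNA. They form 1 group, so the comparisons are between genes, between libraries and between 2 ways of estimating transcript levels from the same reads. No label says that the libraries came from separate cultures, and any p-value here reflects only how these libraries scatter, a scatter that may be technical.

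Each ribosome carries a single copy of most of these proteins, and cells make them in matched amounts from genes scattered over the genome. Their mRNAs are short, abundant and usually start with a C followed by a run of pyrimidines, the terminal oligopyrimidine (TOP) motif, through which the mTOR kinase controls their translation. Many of the genes host small nucleolar RNAs (snoRNAs, guides for the modification of ribosomal RNA) in their introns. Their mRNAs have also been copied back into the genome many times, leaving processed pseudogenes of near identical sequence.

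TPM is a level per length of transcript, and its sum over all features is the same in every library. Gene levels below are RSEM-style TPM, from tables with RSEM's column names that rest on alignments to the transcriptome. A second, kallisto-style set of tables has kallisto's column names and rests on the reads alone. The kallisto-style tables held 17717726 to 19156106 estimated counts per library, and the RSEM-style gene tables held 9765384 to 10610782. Values with ± are a mean and its SD over the libraries (n = 3), and coordinates are on mm10.

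The ES cell label was checked against markers. All 6 ES cell markers, among them Pou5f1, Sox2 and Nanog, had at least 1 TPM in every library, with a summed level of 26180 to 29026 TPM, most of it from Dppa5a at 26198 ± 1726 TPM. Pou5f1 had 495 ± 100.4 TPM, Sox2 279 ± 29.8 TPM and Nanog 505 ± 10.9 TPM. Of 8 fibroblast markers, 2 reached 1 TPM in every library, Fbln1 at 57.7 ± 4.53 TPM and Pdgfrb at 1.53 ± 0.275 TPM. Col3a1 and Dcn were at 0, and the list summed to 56.4 to 65.1 TPM. Of 7 striated muscle markers and 5 spermatid markers none reached that level, with sums of 0.86 to 1.55 TPM and 0 to 0.56 TPM.

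Printed sequences of 2 kinds help to read the results. The first is the coding sequence, read from the annotation's transcripts. Rpl41 (chr10:128548114-128549305, minus strand) had the highest level of the 82 genes and is shown for its length of only 78 bases, with no capitals. Rpl39l (chr16:10170226-10174911, plus strand) and Rpl39 (chrX:37082520-37085402, minus strand) form the most similar paralog pair, and the capitals mark the positions at which the aligned sequences differ.
Rpl41: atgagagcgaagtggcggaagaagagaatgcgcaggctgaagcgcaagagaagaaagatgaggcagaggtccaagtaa
Rpl39l: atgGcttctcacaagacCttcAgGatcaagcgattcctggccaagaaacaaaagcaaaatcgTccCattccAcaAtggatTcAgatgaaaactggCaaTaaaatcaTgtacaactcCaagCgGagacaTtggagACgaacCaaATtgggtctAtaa
Rpl39: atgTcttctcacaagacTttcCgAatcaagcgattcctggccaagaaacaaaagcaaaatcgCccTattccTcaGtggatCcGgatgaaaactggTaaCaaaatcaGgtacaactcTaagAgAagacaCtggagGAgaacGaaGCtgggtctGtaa

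Both Rpl39l and Rpl39 coding sequences have 156 bases, and they differ at 23 of them. The longest stretch without a difference has 38 bases, visible as the lower-case run in the first part of both lines. A read that falls wholly inside that stretch fits both genes, whereas reads across the rest of the coding sequence meet at least 1 difference.

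The second kind is the sequence around the transcription start, from 40 bases before to 20 bases after the start that RefSeq annotates on GRCm38.p6. The capitals mark a run of at least 6 bases that begins with C, holds only C or T and begins within 20 bases of that start, on the gene's own strand. Genes with and without such a run are shown: Rps27 (chr3:90213629-90213688, minus strand), Rps27l (chr9:66946046-66946105, plus strand), Rpl35 (chr2:39005112-39005171, minus strand), Rpl41 (chr10:128549149-128549208, minus strand) and Rpl10 (chrX:74270776-74270835, plus strand).
Rps27: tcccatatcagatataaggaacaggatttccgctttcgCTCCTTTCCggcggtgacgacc
Rps27l: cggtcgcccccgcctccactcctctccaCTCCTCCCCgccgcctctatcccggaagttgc
Rpl35: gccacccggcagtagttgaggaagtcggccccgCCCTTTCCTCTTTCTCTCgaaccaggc
Rpl41: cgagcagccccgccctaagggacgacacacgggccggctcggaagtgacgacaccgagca
Rpl10: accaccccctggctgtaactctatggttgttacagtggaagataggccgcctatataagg

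RefSeq start windows matched 63 of the 82 genes, with 75 windows in all. A pyrimidine run was present in 41 of the 63 genes, or 65.1%, against 32.9% of 17429 other protein-coding genes with a window. Counted by window, 43 of 75 held one, or 57.3%, against 29.4% of 21188 windows of other protein-coding genes. The run in Rps27 begins 2 bases before the annotated start and that in Rpl35 is 18 bases long. The absence of a match in Rpl41 and Rpl10 says only that these letters are not in this window. The median level was 1258 TPM for genes with a run and 1274 TPM for genes without one, so the levels of the 2 sets lay close together.

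The ribosomal protein genes supplied 12.7%, 12.9% and 12.8% of all TPM in replicates 1, 2 and 3 (mean 12.8% ± 0.0876), and 4.49% ± 0.108 of estimated counts. A count share is not divided by length, and the median effective length of these genes was 463 bases against 2262 bases for protein-coding genes that are expressed, defined as at least 1 TPM in all 3 libraries. All 82 genes passed that level. Their median was 1312 ± 32.8 TPM, against 19.6 ± 0.712 TPM over the 11464 protein-coding genes expressed. They made up 4 of the 10 genes of highest mean TPM, 24 of the highest 50 and 42 of the highest 100.

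**Figure D1:**
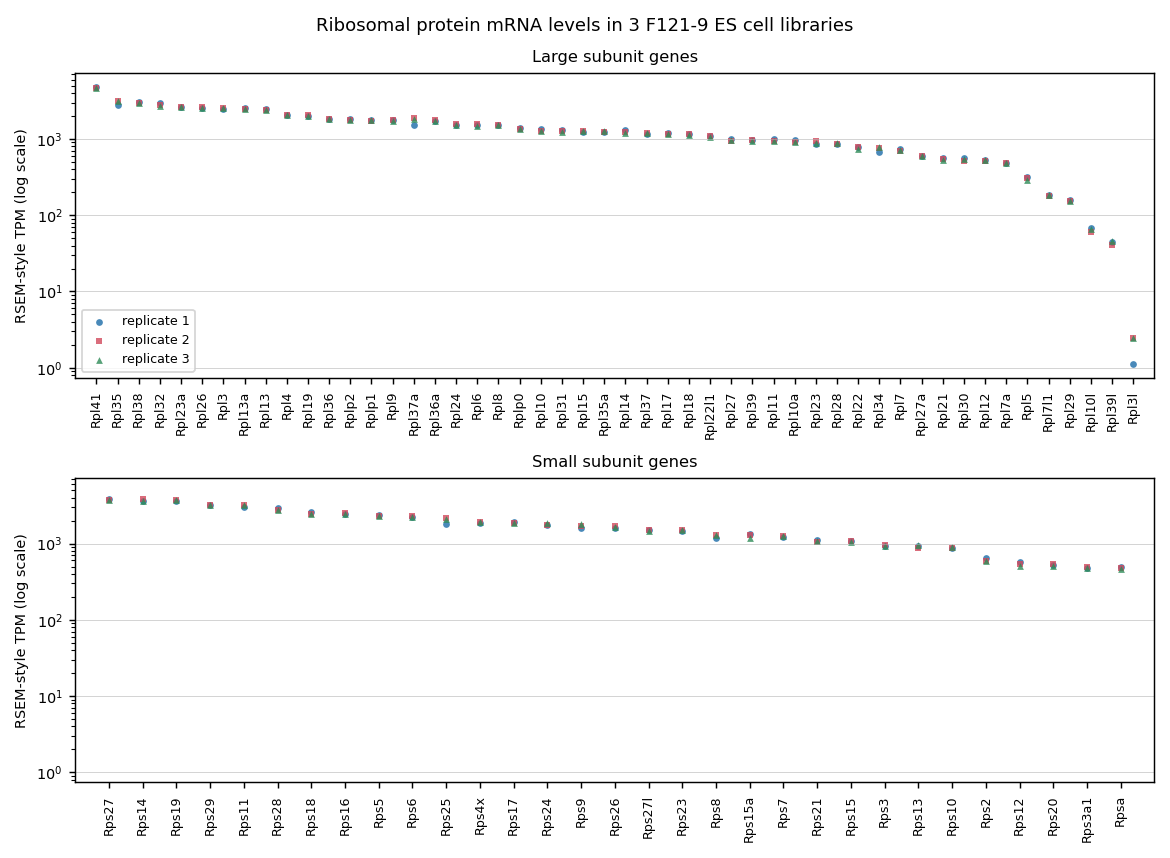
RSEM-style TPM of the genes reported (log axis) in replicates 1, 2 and 3, large subunit above and small subunit below, ordered by mean. All core genes except Rpl5 and Rpl29 lie above 400 TPM, and the libraries differ far less than the genes do; Rpl5, Rpl7l1, Rpl29, Rpl10l, Rpl39l and Rpl3l close the large subunit panel.

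Rpl41, a very short and basic protein of the large subunit, was the highest, at 4782, 4635 and 4611 TPM in replicates 1, 2 and 3. Rps27, a zinc finger protein of the small subunit, had 3801, 3692 and 3691 TPM. Rpl41 was above Rps27 in every library, and both were highest in replicate 1.

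Rps14, whose loss underlies the anaemia of the human 5q- syndrome, had 3623, 3783 and 3656 TPM. Rps19, the gene most often mutated in human Diamond-Blackfan anaemia, had 3579.7, 3750.1 and 3697 TPM. Rps29, another zinc finger protein of the small subunit, had 3216, 3190.0 and 3236 TPM. The ranges of Rps27, Rps14 and Rps19 overlap, whereas Rps29 was below all of them in every library. In the kallisto-style tables Rps29, at 3300.2 ± 87.5 TPM, was above all of them in every library.

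At the other end of the core genes in the RSEM-style tables stood Rpl29, at 158, 153 and 154 TPM, a protein of the large subunit that mice can live without. Rpl5, which carries 5S ribosomal RNA into the large subunit, followed at 312, 309.7 and 291 TPM. The ranges of these genes do not overlap with each other or with that of any other core gene in these tables. The order differs in the kallisto-style tables, where Rpl5 at 27.4 ± 4.10 TPM, Rpl12 at 64.8 ± 1.57 TPM and Rps12 at 80.2 ± 5.92 TPM lay below Rpl29 at 239 ± 19.1 TPM. These low levels are those of single genes. Rpl29 shares at least 100 words of 31 bases with 44 other genes. Summed with them it had 1279 ± 60.9 TPM in the RSEM-style tables and 927 ± 85.2 TPM in the kallisto-style tables.

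The lowest small subunit genes of the RSEM-style tables lay higher than these. Rpsa, a protein of the small subunit also known as a laminin receptor precursor, had 493, 482 and 469.6 TPM. Rps3a1 had 471, 494 and 482 TPM. Their ranges overlap, and they overlap that of the large subunit gene Rpl7a at 479.9 to 484 TPM. In the kallisto-style tables Rps12 and then Rps13, at 317 ± 19.1 TPM, were the lowest small subunit genes, below Rpsa at 375 ± 20.7 TPM.

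Among the 76 core genes, 54 lay within 2-fold of their median of 1434 TPM, 9 lay above and 13 below. The quartiles were 928 and 2272 TPM, and the highest core gene stood 30.2-fold above the lowest. In the kallisto-style tables the quartiles were 619 and 1613 TPM, and the highest core gene, Rpl41, stood 130.4-fold above the lowest, Rpl5. Core large subunit genes had a median of 1297 ± 31.8 TPM and core small subunit genes 1682 ± 57.8 TPM. Over all 82 genes the median log2(TPM + 1) of large minus small subunit genes was -0.37, -0.45 and -0.42 in replicates 1, 2 and 3 (mean -0.41 ± 0.041), lower for the large subunit in every library. This is a description of gene lists, not a test.

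Shorter genes had higher levels per length. Across the 76 core genes Spearman's rho between mean TPM and effective length was -0.42, where it was -0.27 across the other protein-coding genes expressed. With kallisto-style TPM of the core genes it was -0.46. These values use a length in the TPM itself, and between estimated counts, which are not divided by length, and effective length rho was 0.33 across the core genes, of the opposite sign. Levels and lengths share their libraries, and genes of 1 set of libraries are not independent replicates. The 31 core genes with an effective length under 400 bases had a median of 1806 TPM, and the 17 of 700 bases or more had a median of 716 TPM.

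The P-stalk proteins recruit translation factors to the large subunit. In the RSEM-style tables Rplp0 had 1399, 1361 and 1364 TPM, Rplp1 had 1789.5, 1708 and 1754 TPM, and Rplp2 had 1846, 1779 and 1794 TPM. Rplp0, present once per stalk where the other proteins form dimers, was the lowest of the 3 in each library, and Rplp2 was above Rplp1 in each. The same order held in the kallisto-style tables with a wider gap, at 698 ± 49.5 TPM for Rplp0, 1290 ± 83.6 TPM for Rplp1 and 1356 ± 69.6 TPM for Rplp2. It did not hold when each gene was summed with the other genes that share its sequence. Rplp0 then had the highest mean, at 3284 ± 77.5 TPM in the RSEM-style tables and 1614 ± 116 TPM in the kallisto-style tables. The sums were 1798 ± 46.8 and 1383 ± 93.0 TPM for Rplp1, and 1823 ± 35.2 and 1372 ± 70.1 TPM for Rplp2.

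Rpl11, which joins Rpl5 and 5S ribosomal RNA in a particle that can also bind the p53 regulator Mdm2, had 995, 947 and 926 TPM. Its level stood above that of Rpl5 in all 3 libraries, though both proteins are present once per ribosome. The gap was narrower when each gene was summed with the other genes that share its sequence. These sums were 1214 ± 46.2 TPM for Rpl11 and 870.0 ± 12.6 TPM for Rpl5 in the RSEM-style tables. In the kallisto-style tables they were 929 ± 95.6 and 789 ± 29.5 TPM.

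Some proteins of the ribosome fall outside the naming rule. Rps27a, which encodes ubiquitin fused to a small subunit protein, had 1864 ± 56.6 TPM. Fau, a ubiquitin-like protein fused to a small subunit protein, had 1989.7 ± 21.5 TPM. Rpl36al, a copy of Rpl36a, had 867 ± 6.61 TPM, and Rack1, a scaffold on the small subunit, had 673 ± 13.5 TPM. These 4 genes lay within the range of the core genes.

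Lists of genes that make, accompany or parallel the cytosolic ribosome had lower medians. A list of 20 ribosome assembly genes, all expressed, had a median of 85.9 ± 4.59 TPM. A list of 14 other TOP mRNAs, such as Eef1a1 and Npm1, had a median of 578 ± 11.5 TPM. The 78 mitochondrial ribosomal protein genes, which serve the separate ribosome of mitochondria, had a median of 104 ± 2.07 TPM and 0.990% ± 0.0185 of all TPM, against 12.8% ± 0.0876 for the cytosolic genes.

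Of the 82 genes, 30 enclose an annotated snoRNA, or 36.6%, against 182 of 11382 other protein-coding genes expressed, or 1.60%. They enclose 58 snoRNAs in all, and Rpl4 holds the most, with 5. The median level was 1071 TPM for genes with a snoRNA and 1500.5 TPM for genes without one. The 82 genes lie on 19 chromosomes, 4 of them (Rps4x, Rpl36a, Rpl10 and Rpl39) on the X.

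Paralogs were compared with the genes they resemble. In each of the 8 pairs examined the values of the paralog and of its partner did not overlap over the 3 libraries, and Rpl22l1 was the only paralog above its partner. An exact permutation test (two-sided, flipping the sign of each library's difference) cannot go below p = 0.25 with 3 libraries, and every pair gave that p (0.25 also after adjustment over the 8 pairs), so differences are set beside the spread between libraries.

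Rpl22l1 (chr3:28805436-28807424), which resembles Rpl22 and can stand in for it in the ribosome, had 1099, 1094.7 and 1049 TPM. Rpl22 (chr4:152325742-152334071) had 773, 790.4 and 737 TPM. On the log2(TPM + 1) scale the difference was 0.49 ± 0.022, with Rpl22l1 the higher in every library. It made up 60.5% ± 1.09 of the TPM of the pair in the kallisto-style tables and 58.5% ± 0.372 in the RSEM-style tables.

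Rps27l (chr9:66946086-66949516), a paralog of Rps27 known as a target of p53, had 1487, 1519.9 and 1478 TPM. Rps27 (chr3:90212522-90213651) had 3801, 3692 and 3691 TPM. The difference was -1.32 ± 0.037 on the log2 scale, and the paralog made up 28.6% ± 0.521 of the pair. The coding sequences are 76.1% identical with no identical stretch over 11 bases.

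Rpl7l1 (chr17:46773907-46782672), related to a ribosome assembly factor of yeast, had 185, 178 and 185 TPM. Rpl7 (chr1:16101295-16104662) had 736, 696 and 715 TPM. The log2 difference was -1.97 ± 0.021, and Rpl7l1 made up 20.3% ± 0.240 of the pair. Identity between the coding sequences was the lowest of all pairs aligned, at 54.5%.

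Rpl10l (chr12:66283379-66284401), an autosomal copy of the X-linked Rpl10 best known from male germ cells, had 67.4, 60.1 and 65.6 TPM. Rpl10 (chrX:74270812-74273135) had 1358, 1273 and 1262 TPM. The log2 difference was -4.31 ± 0.069, far beyond the spread between libraries. Rpl10l made up 4.04% ± 0.261 of the TPM of the pair in the kallisto-style tables and 4.72% ± 0.217 in the RSEM-style tables.

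Rpl39l, likewise an autosomal paralog of an X-linked gene and best known from spermatids, had 45.0, 40.9 and 46.6 TPM. Rpl39 had 961, 976 and 951 TPM. The log2 difference was -4.42 ± 0.114, and the paralog made up 4.38% ± 0.334 of the pair. Both germ cell paralogs were thus above 40 TPM in every library while the 5 spermatid markers (Prm1, Prm2, Tnp1, Tnp2 and Acrv1) summed to at most 0.56 TPM.

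Rpl3l (chr17:24727820-24736143), the form of Rpl3 that striated muscle uses, was the lowest of the 82 genes at 1.12, 2.46 and 2.43 TPM, which rest on 44 estimated counts over the 3 libraries. Rpl3 (chr15:80077791-80091868) had 2467, 2559 and 2560.4 TPM. The log2 difference was -9.75 ± 0.374, and Rpl3l made up 0.0787% ± 0.0289 of the pair. Its rank rests on few counts: the interval that the authors' tables give for its TPM was 145% of the TPM wide, against a median of 6.22% over the 82 genes.

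The other two pairs involve genes with no transcript typed protein-coding, which the naming rule leaves out. Rps4l had 476, 419.6 and 438 TPM, and Rps4x, a small subunit protein encoded on the X, had 1874, 1910.1 and 1909 TPM, a log2 difference of -2.09 ± 0.107. Rpl32l held 0, 2 and 1.19 estimated counts, at or under the 3 counts that a count of 0 allows, so no difference from Rpl32 is given.

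**Figure D2:**
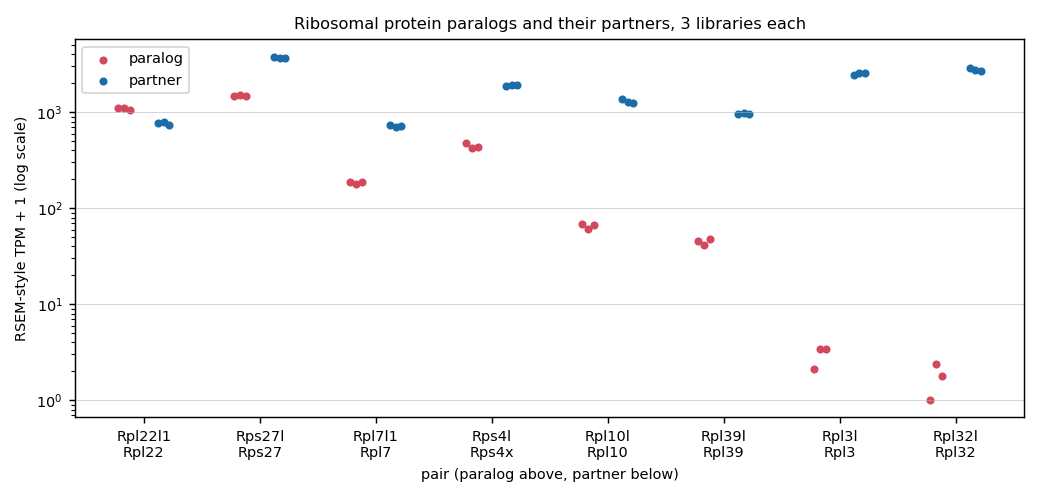
RSEM-style TPM + 1 (log axis) of the 8 paralogs and their partners, each point 1 library, pairs ordered by difference. Only Rpl22l1 stands above its partner; Rpl3l and Rpl32l lie near the bottom of the axis at no more than 2.46 TPM.

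The 3 libraries were next compared with each other, to ask which ribosomal protein genes vary between replicates of the same cells. With edgeR's quasi-likelihood test and Benjamini-Hochberg adjustment, 0 of the 81 genes tested passed an adjusted p of 0.05, where 5 of 13391 genes did (0.0373%). Rpl3l was left out by the filter on low counts. At an unadjusted p under 0.05 the test named 5 of the 81, where 4.56% of all genes reached it. A chi-square test of the counts against counting noise alone, with 2 degrees of freedom, called 30 of the 81 at an adjusted p of 0.05, where 12.4% of all genes passed. Among genes of at least 1000 counts on average, where such a test sees smaller differences, it called 30 of 78, against 36.6% of all genes of that depth, so the share in ribosomal protein genes is near the background.

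The median coefficient of variation of CPM (counts scaled to library size with TMM factors) was 2.75% over the 81 genes. It was 4.14% over the 222 other genes of at least 500 TPM. Of all 82 genes, 69 had a TPM that varied by under 5% between libraries.

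Among the genes of smallest p, Rpl37a, a zinc finger protein of the large subunit, had 399.5, 513 and 488 CPM (edgeR adjusted p = 0.725). Rpl34 had 145, 169 and 174 CPM, Rps25 had 403, 475 and 462 CPM, and Rpl35 had 840.2, 990.1 and 948 CPM, each with an edgeR adjusted p of 0.987. In these 4 genes the lowest library by CPM was replicate 1. By kallisto-style TPM replicate 1 was again the lowest in Rpl37a, Rps25 and Rpl35. In Rpl34 it was the highest by that measure, at 598, 570 and 577 TPM in replicates 1, 2 and 3.

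Both main transcripts of Rps25 were lowest in replicate 1 in the RSEM-style tables. Rps25-204 had 869, 1149 and 1049 TPM in replicates 1, 2 and 3, and Rps25-205 had 921, 961 and 974 TPM, a narrower range. These transcripts were chosen after their values were seen.

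By CPM of the RSEM-style counts, replicate 1 was the lowest of the 3 libraries in 54 of the 81 genes and the highest in 6. This order depended on the measure. The kallisto-style share of TPM was highest in replicate 1, at 9.98%, 9.39% and 9.33% in replicates 1, 2 and 3. The RSEM-style share was lowest in replicate 1, at 12.7%, 12.9% and 12.8%, but the RSEM-style median was highest there, at 1349, 1301 and 1286 TPM. Among the 7584 genes of at least 20 CPM replicate 1 was the lowest in 43.0% and the highest in 37.9%. Replicate 1 thus stood apart from the other libraries over the whole transcriptome and not only here. Those genes were split between lowest and highest, whereas the ribosomal protein genes were mostly lowest in replicate 1 by CPM. The log2 CPM of replicate 1 minus the mean of replicates 2 and 3 had a median of -0.05 over ribosomal protein genes. The median was -0.01 over all genes of at least 20 CPM, whose 5th and 95th percentiles were -0.21 and 0.26. Of 80 ribosomal protein genes of that depth, 4 lay below that 5th percentile. Without replicate 1 the chi-square test called 1 ribosomal protein gene and not 30, and over all genes it called 27 and not 1656. What sets replicate 1 apart was not tested.

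**Figure D3:**
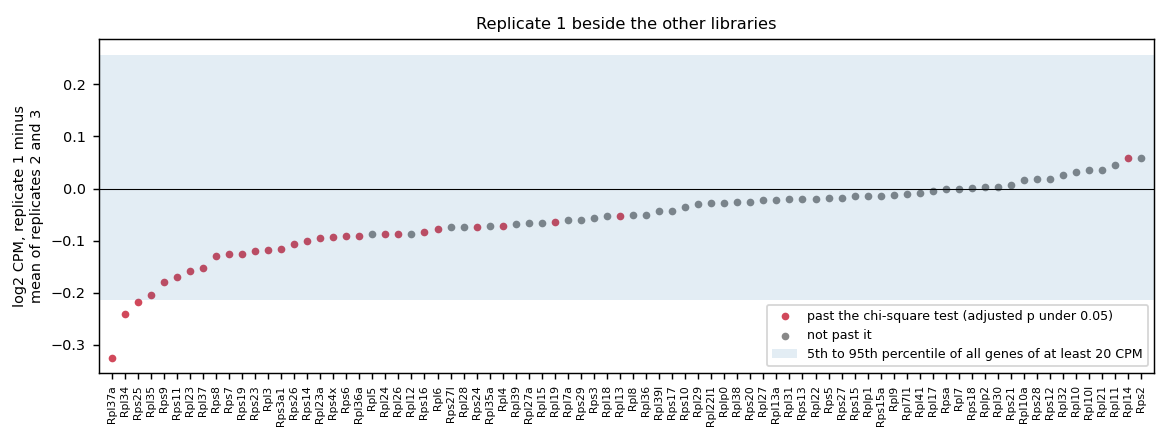
Log2 CPM of replicate 1 minus the mean of replicates 2 and 3 for the genes reported, ordered by value, coloured by the chi-square test; the band spans the 5th to 95th percentile of all genes of at least 20 CPM. Rpl37a, Rpl34 and Rps25 fall below the band and no gene lies above it.

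The 2 quantifications were then compared, which asks how far the level of a ribosomal protein mRNA depends on how its reads were assigned. The genes supplied 9.57% ± 0.362 of TPM in the kallisto-style tables and 12.8% ± 0.0876 in the RSEM-style tables. The difference of log2(TPM + 1), kallisto-style minus RSEM-style, was taken within each library and tested with limma over all genes. A call needed an adjusted p below 0.05 together with a difference of 1 or more on average. Of 14790 genes tested 13.1% were called, 2.36% as lower and 10.7% as higher in the kallisto-style tables. Of the 82 ribosomal protein genes 8 were called lower and 0 higher. The ordering of the genes was nonetheless close, with Spearman's rho of 0.95 between the mean TPM of the 2 sets of tables across the 82 genes.

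The median difference was -0.39 over the 82 genes, -0.25 over all genes tested and -0.34 over other genes of at least 500 TPM. Measured from the median of all genes, 6 of the 8 stayed past a difference of 1, and Rpl35 and Rpl3 did not. This setting was chosen after seeing the data.

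Rpl5 differed most. It had 30.5, 28.8 and 22.7 TPM in the kallisto-style tables, against 312, 309.7 and 291 TPM in the RSEM-style tables, a log2 difference of -3.44 ± 0.161 (limma adjusted p = 1.84e-05). The groups of values do not overlap. Its near copy Gm15500, a gene with no transcript typed protein-coding that shares 988 of its 31-base words, had 776, 723 and 736 TPM in the kallisto-style tables and 548, 551 and 548 TPM in the RSEM-style tables.

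Rpl12, part of the base of the P-stalk, had 66.1, 65.3 and 63.0 TPM in the kallisto-style tables, against 532, 512 and 529 TPM in the RSEM-style tables (log2 difference -2.997 ± 0.049). Its near copy Gm10275 had 644, 620.2 and 628 TPM, against 32.0, 47.0 and 41.6 TPM. The level that is low in Rpl12 was thus high in Gm10275 within the same tables.

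Rps12, a small subunit protein, had 86.2, 74.3 and 80.2 TPM in the kallisto-style tables, against 569, 539 and 509.7 TPM in the RSEM-style tables (log2 difference -2.73 ± 0.098). The copy Rps12-ps3 had 362, 322 and 309.5 TPM, against 4.64, 7.93 and 8.64 TPM. Rps13, also of the small subunit, had 337, 298 and 315 TPM, against 941, 882 and 943 TPM (-1.54 ± 0.052), and its copy Rps13-ps1 had 1062, 969 and 957 TPM, against 671, 677 and 678 TPM.

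The remaining called genes differed by less. Rps23, which forms part of the decoding centre, had 569.95, 548 and 527 TPM in the kallisto-style tables, against 1457, 1520.2 and 1501 TPM in the RSEM-style tables (-1.44 ± 0.081), and Rps7 had 520.4, 499.9 and 479 TPM, against 1222, 1263 and 1263 TPM (-1.32 ± 0.084). Rpl35 had 1371, 1444 and 1396 TPM, against 2754, 3178 and 3128 TPM (-1.10 ± 0.084). Rpl3, which lies near the peptidyl transferase centre, had 1276, 1219.7 and 1219 TPM, against 2467, 2559 and 2560.4 TPM (-1.03 ± 0.069). For each of the 8 called genes every kallisto-style value lay below every RSEM-style value, with limma adjusted p-values from 8.87e-06 to 0.000207.

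In the other direction Rpl29 stood alone, at 261, 230.3 and 226 TPM in the kallisto-style tables against 158, 153 and 154 TPM in the RSEM-style tables (0.62 ± 0.089), short of the minimum difference. The next 4 were Rps29 at 0.04, Rpl37a at 0.03, and Rps3 and Rpl39 at 0.00.

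Shared sequence was counted as words of 31 bases. The 82 genes shared at least 100 such words with 700 other genes, of which 627 are processed pseudogenes, and 7 of the 82 shared that many with none. The median gene shared them with 5 other genes and the most with 64. Of the words in the leading coding transcript, a median of 64.9% also occurred in another gene, and in 36 genes more than 75% did. The 700 genes together held 3.08% ± 0.102 of TPM in the kallisto-style tables and 3.54% ± 0.0397 in the RSEM-style tables.

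Each gene was then summed with the others that share its sequence, an alternative chosen after seeing the data. The spread of the difference across the 82 genes was smaller for the sums, with an SD of 0.21, than for single genes, with an SD of 0.59. The median was -0.37 for the sums, near the -0.39 of single genes. Summing did not bring the tables closer for every gene. In some the difference grew, as from -0.12 to -0.57 in Rpl10a and from -0.25 to -0.59 in Rps3a1. In others, such as Rpl5 below, it shrank. The sums of the called genes Rps7 and Rpl3 differed by -0.68 ± 0.053 and -0.52 ± 0.068. Only 1 sum differed by at least 1, that of Rplp0 at -1.03 ± 0.068, where Rplp0 alone differed by -0.98 ± 0.078.

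For Rpl5 and its 7 copies the sum was 789 ± 29.5 TPM in the kallisto-style tables and 870.0 ± 12.6 TPM in the RSEM-style tables, a difference of -0.14 ± 0.050. For Rpl12 the sums were 700.5 ± 12.5 and 574 ± 15.2 TPM (0.29 ± 0.018), and for Rps12 they were 525 ± 34.0 and 675 ± 36.6 TPM (-0.36 ± 0.039). For these families the tables agreed better on the family total than on the division between the gene and its copies. Levels of these single genes, and of their copies, are therefore uncertain.

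**Figure D4:**
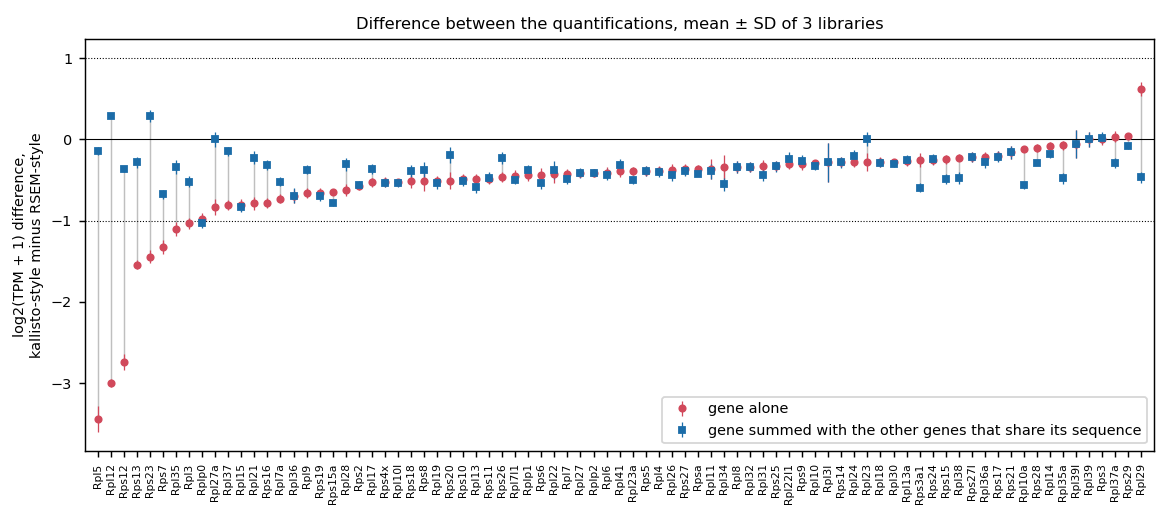
Difference of log2(TPM + 1), kallisto-style minus RSEM-style, for each gene alone and summed with the other genes that share at least 100 words of 31 bases with it (mean ± SD of 3 libraries); dotted lines mark the minimum difference of 1. Single genes reach -3.44 at Rpl5, while the sums run from -1.03 to 0.29.

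Related lists differed between the quantifications in few genes. None of the 20 assembly genes or the 14 other TOP mRNAs was called in either direction. Among the 78 mitochondrial ribosomal protein genes 1 was called lower, Mrpl23, named here after its value was seen. With edgeR's test between replicates 0 genes of these lists passed an adjusted p of 0.05, and 0 assembly genes, 0 TOP mRNAs and 3 mitochondrial ribosomal protein genes had an unadjusted p under 0.05. The chi-square test called 5 assembly genes (25%), 8 TOP mRNAs (57.1%) and 13 mitochondrial ribosomal protein genes (16.7%), where 12.4% of all genes passed. Among genes of at least 1000 counts on average it called 5 of 19, 8 of 14 and 8 of 14, where 36.6% of all genes of that depth passed.

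The 82 genes have 493 annotated transcripts. Of these 230 are typed protein-coding, 176 retained intron, 62 processed transcript and 25 nonsense-mediated decay. Protein-coding transcripts held 91.3% ± 0.423 of the TPM of the 82 genes in the kallisto-style tables and 87.9% ± 0.551 in the RSEM-style tables. Retained introns held 2.92% ± 0.0442 and 4.80% ± 0.0395. Transcripts not typed protein-coding made up over 20% of the gene's TPM in 15 genes in the kallisto-style tables, in 14 in the RSEM-style tables and in 11 in both.

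**Figure D5:**
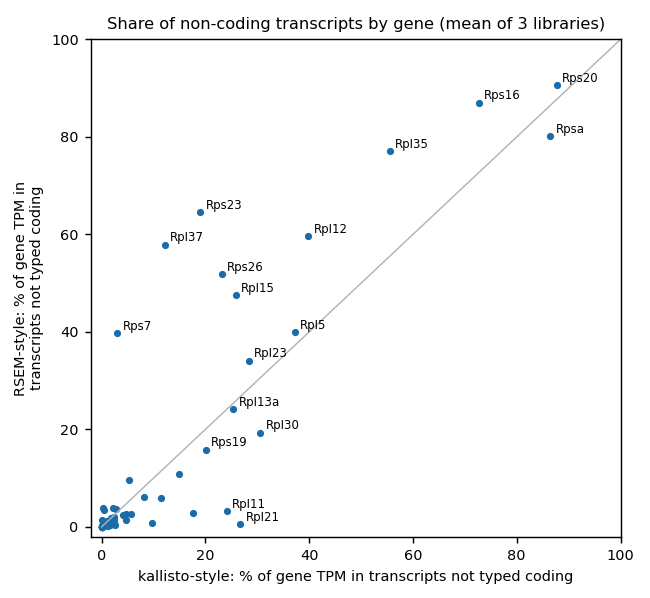
Percent of each gene's TPM in transcripts not typed protein-coding, kallisto-style (x) against RSEM-style (y), mean of 3 libraries, with the line of equality; genes over 20% in either are named. Rps20, Rpsa and Rps16 are high in both, and Rps7, Rpl37 and Rps23 are far higher in the RSEM-style tables.

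In 5 genes a transcript not typed protein-coding led in both sets of tables, that is, had the largest share of the gene's TPM. Rps20-201, typed retained intron, held 79.4% ± 1.70 of Rps20 in the kallisto-style tables and 89.6% ± 1.00 in the RSEM-style tables. Rpsa-206, typed nonsense-mediated decay, held 84.6% ± 1.00 and 79.9% ± 0.603 of Rpsa. Rps16-203 held 40.9% ± 1.44 and 65.3% ± 0.731, and Rpl35-203 held 54.9% ± 0.899 and 67.1% ± 0.787 of their genes.

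The leading transcript was the same in 73 of the 82 genes and differed in Rpl10a, Rpl12, Rpl13a, Rpl15, Rpl21, Rpl37, Rps3, Rps23 and Rps26. In 5 of these 9 a protein-coding transcript led in the kallisto-style tables where a transcript of another type led in the RSEM-style tables. Rpl37-201, protein-coding, held 87.8% ± 0.0503 of Rpl37 in the kallisto-style tables and 42.2% ± 2.12 in the RSEM-style tables, where Rpl37-202 held 49.5% ± 2.19. Rps26-201 held 76.9% ± 3.36 against 48.3% ± 2.34, and Rps23-201 held 80.97% ± 1.59 against 35.5% ± 1.24.

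In the 4 genes where both leading transcripts are protein-coding the choice fell on different lengths. Rps3-205, of 489 bases, led in the kallisto-style tables with 49.96% ± 1.32, and Rps3-201, of 1908 bases, led in the RSEM-style tables with 63.1% ± 1.48. Rpl10a-201 led with 69.0% ± 2.95 where Rpl10a-212 led with 49.0% ± 1.41. Rpl21-201 led with 33.9% ± 1.51, barely above the 33.6% ± 1.02 of Rpl21-202, which held 79.7% ± 1.03 in the RSEM-style tables.

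Over single transcripts, limma called 57 lower and 65 higher in the kallisto-style tables among the 384 that were tested for these genes. Over all 28903 transcripts tested 6.78% were called lower and 12.1% higher, or 18.9% in all. The largest negative difference was that of Rpl37-202, at 3.75, 3.87 and 2.63 TPM in the kallisto-style tables against 601, 571 and 599.8 TPM in the RSEM-style tables (-7.08 ± 0.259, limma adjusted p = 0.000343). Rps7-205, a retained intron, followed at 8.59, 5.19 and 4.96 TPM against 468, 456 and 479 TPM. Rpl35-202 at -5.69 ± 1.90, Rpl5-202 at -5.57 ± 0.440 and Rplp0-203 at -4.38 ± 0.101 completed the 5 most negative.

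The largest positive difference was that of Rpl21-206, a retained intron at 76.1, 60.6 and 79.7 TPM in the kallisto-style tables against 0, 0.56 and 0.54 TPM in the RSEM-style tables (5.76 ± 0.485, limma adjusted p = 0.00102). Rpl10a-215, Rpl11-204 and Rpl10a-211 had 27.7 to 62.7 TPM in the kallisto-style tables and were listed at 0 in all RSEM-style tables. Rps18-209 had 46.9, 31.8 and 40.7 TPM against 0, 1.11 and 0 TPM. Such differences between tables concern annotated transcript models, and the whole-gene differences of Rpl21, Rpl10a, Rpl11 and Rps18 were not called.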

How the data were processed

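Per the notes deposited with the libraries, the authors made the gene table and 1 transcript table of each library from transcriptome alignments, and the other transcript table from the read files, on mm10 with GENCODE annotation M21. Which quantifiers, aligner and versions were used, and whether strand was counted, is not given in the sources used here, so overlapping genes on opposite strands cannot be told apart. The deposited expected counts, as the authors' quantifiers estimated them, are not normalized. The deposited TPM values are per length and scaled by the authors to the same sum over all features, spike-ins included. The deposited effective lengths and TPM interval bounds were read as given, and the level of those intervals is not stated. FPKM was not used.

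Members were found by symbol and transcript type. Members and lists were chosen with earlier results of these data known. Kallisto-style transcripts were summed per gene. Counts were rounded, and 26248 rows with tRNA numbers, 0.000147% of counts, stayed out of tests, as did spike-ins. Spread between libraries was tested with edgeR 4.0.16 (filterByExpr, TMM and a quasi-likelihood fit with an intercept alone, in which the dispersion of a gene is set against the trend by an F test) and with a chi-square test against Poisson. Quantifications were compared with limma 3.58.1 on log2(TPM + 1), for features of at least 1 TPM in either table in all libraries; such differences understate those of low features. Benjamini-Hochberg adjustment ran over all features tested. Scripts were tested on simulated data. R was 4.3.3, Python 3.11.15, numpy 2.4.6, pandas 2.3.3 and scipy 1.17.1. Words of 31 bases were compared on both strands over all annotated transcripts. Coding sequences were aligned end to end with Biopython 1.88. The limit set by a count of 0 is 3 counts (0.288, 0.313 and 0.301 CPM in replicates 1, 2 and 3), for counting error alone.

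Genes named are the paralog pairs, the 6 highest and 4 lowest, the 2 highest and lowest core genes of each subunit, the P-stalk, Rpl5, Rpl11, Rpsa, the 5 of smallest p between replicates, those called or among the 5 largest differences between quantifications in each direction (transcripts too), those whose leading transcript differed, and ribosome genes outside the rule. Alternatives were other pseudocounts, filters, scalings, tables and each replicate left out. A few genes covered by the rule are not reported here.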

Additional observations from a re-analysis of the deposited data

Results flagged for a closer look

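Beside Rps27a and Rpl36al, 7 genes with ribosomal protein symbols that the naming rule leaves out had reads above the limit that a count of 0 allows. Each is a copy or relative of a gene described above, and each is given here because its signal lies outside the 82 genes; Rps4l was also among the paralog pairs. Rpl37rt averaged 1749.6 ± 2.88 TPM in the kallisto-style tables and 1500.7 ± 83.0 TPM in the RSEM-style tables. Rpl37, with which it shares 284 words of 31 bases, averaged 679.8 ± 15.04 and 1193 ± 27.8 TPM in the same tables, so Rpl37rt was the higher in both and by more in the kallisto-style tables. Rps3a2 and Rps3a3, copies of Rps3a1, averaged 570.1 ± 11.1 and 129 ± 7.57 TPM in the kallisto-style tables, beside 405 ± 15.1 TPM for Rps3a1. In the RSEM-style tables they averaged 870.2 ± 7.18 and 335 ± 15.7 TPM, beside 482 ± 11.6 TPM for Rps3a1. Rps4l averaged 352 ± 39.7 TPM in the kallisto-style tables and 444 ± 28.7 TPM in the RSEM-style tables.

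The other copies were lower. Rps27rt averaged 24.0 ± 14.4 TPM in the kallisto-style tables and 73.9 ± 6.04 TPM in the RSEM-style tables. Rpl6l averaged 0.575 ± 0.269 TPM in the kallisto-style tables and 15.3 ± 3.15 TPM in the RSEM-style tables, and Rps12l1 was listed at 0 in every kallisto-style table and averaged 14.9 ± 4.13 TPM in the RSEM-style tables. What part of these levels comes from reads of the parent genes was not tested.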

How the results depend on the processing

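The share of the 82 genes was 9.57% in the kallisto-style tables, 13.5% with spike-ins left out and 4.49% of estimated counts, against 12.8% as reported. Their median was 1038 TPM in the kallisto-style tables and 1312 TPM in the RSEM-style tables. The number expressed ranged from 81 to 82, and the difference of large minus small subunit from -0.44 to -0.37. All 48 paralog values kept their direction. Genes that edgeR called variable numbered 5, against 2 with ERCC scaling, 34 with no filter on low counts, 16 with kallisto-style counts and 7 to 14 without 1 replicate; 0 were ribosomal protein genes under each. The chi-square test called 1656 genes, 30 of them ribosomal protein genes, against 4644 and 70 with ERCC scaling, 2800 of all genes with kallisto-style counts, and 27 to 1471 and 1 to 30 without 1 replicate, the lowest both without replicate 1. Between quantifications 1932 genes were called, against 913 with a pseudocount of 5 and 11478 with no minimum difference, and 8 ribosomal protein genes, against 72 with no minimum difference. Of transcripts 5450 were called, against 2272 with a pseudocount of 5 and 17807 with no minimum difference, and 122 of the ribosomal protein genes, against 260 with no minimum difference. With no replicate block, the tables being taken as unpaired, 8 ribosomal protein genes and 119 of their transcripts were called. Of the 82 genes depth limits Rpl3l most, at 44 estimated counts.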
